A study of Mus musculus with 18 samples.

Results

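The neutrophil genes described here are 9 genes of mature neutrophils and their granules, picked by name: Csf3r, S100a8, S100a9, Retnlg, Ngp, Camp, Ltf, Mmp8 and Mmp9. They are 9 of the 55385 genes in the deposited tables, and each name matched 1 row. RNA with a polyA tail was measured in whole kidney of 18 mice aged 17.1 to 18.0 weeks, with 6 mice per genotype, 3 of them male and 3 female. Dp16 2xIFNRs mice carry the Dp16 duplication, and their interferon receptor genes are back at the usual gene dose. Dp16 mice, used to model trisomy 21, carry an additional copy of a stretch of chromosome 16 that includes the interferon receptor genes. The wild-type mice were C57BL/6J, and the labels name no strain for the other groups and no treatment for any group. The duplication is inherited through the germline, so blood and kidney cells both carry it.

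Neutrophils are short-lived white blood cells that leave the bone marrow under the control of granulocyte colony-stimulating factor, whose receptor is the product of Csf3r. They fill their granules in stages during maturation in the marrow, so transcripts of granule proteins such as Ngp, Camp and Ltf are highest in precursors, while S100a8, S100a9, Retnlg and Mmp9 stay high in circulating cells. In a healthy kidney neutrophils are sparse and mostly inside blood vessels. Several of these genes are also transcribed elsewhere, for example Csf3r in monocytes and macrophages, Ltf in glandular epithelium and Mmp9 in macrophages and epithelial cells.

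All 9 genes lie outside the duplicated segment, which was taken as chromosome 16 from Lipi to Zbtb21, 75.5 to 98.0 Mb (GRCm38). Retnlg is on the same chromosome but at 48.9 Mb. S100a8 (chromosome 3, 90668978 to 90670035, plus strand) and S100a9 (90692632 to 90695721, minus strand) are neighbours, 22.6 kb apart. Camp, Ngp and Ltf stand within 1.2 Mb of each other on chromosome 9, and Ltf runs from 111019271 to 111042767. Mmp8 is also on chromosome 9 (7558456 to 7568485), Csf3r is on chromosome 4 (126024550 to 126044440) and Mmp9 on chromosome 2 (164940780 to 164955850). No other annotated gene (GENCODE M21) overlapped any of them.

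The sequences upstream of 4 genes are shown because Csf3r and Ltf are the genes that differed between genotypes and S100a8 and S100a9 are the pair whose products act as 1 complex. They come from RefSeq promoter windows (GRCm38.p6), which held 8 of the 9 genes, and are written 5′ to 3′ on the gene's own strand. Each stretch ends before the first base annotated as transcribed in either RefSeq or GENCODE. Capitals mark matches on either strand to TTGCNNAA, a core motif of C/EBP factors, and to GAGGAA, a core of PU.1 sites. Factors of both kinds act in granulocyte development.
Csf3r, chr4:126024409-126024549, plus strand: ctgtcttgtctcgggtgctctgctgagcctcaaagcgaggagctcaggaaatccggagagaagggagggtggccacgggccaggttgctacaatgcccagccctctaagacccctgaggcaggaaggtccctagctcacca
Ltf, chr9:111019042-111019270, plus strand: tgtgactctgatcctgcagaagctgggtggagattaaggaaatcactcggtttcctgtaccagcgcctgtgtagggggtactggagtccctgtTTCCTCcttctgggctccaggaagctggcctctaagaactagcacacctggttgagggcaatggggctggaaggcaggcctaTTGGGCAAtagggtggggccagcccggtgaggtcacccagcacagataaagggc
S100a8, chr3:90668821-90668977, plus strand: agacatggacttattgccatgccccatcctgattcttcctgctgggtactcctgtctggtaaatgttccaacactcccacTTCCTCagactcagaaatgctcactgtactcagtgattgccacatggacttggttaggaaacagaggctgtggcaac
S100a9, chr3:90695722-90695971, minus strand: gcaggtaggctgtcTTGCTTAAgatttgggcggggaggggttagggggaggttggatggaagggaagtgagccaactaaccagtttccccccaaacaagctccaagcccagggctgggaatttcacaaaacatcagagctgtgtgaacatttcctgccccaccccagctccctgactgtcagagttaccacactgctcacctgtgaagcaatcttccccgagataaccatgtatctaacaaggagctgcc
The printed stretch of Ltf held both motifs, those of S100a8 and S100a9 held 1 each, and that of Csf3r held none. In the full 250 bases before the RefSeq start, TTGCNNAA occurred in 5 of the 8 genes, against 9.6% of 32851 mouse promoters. GAGGAA occurred in 4 of the 8 genes, Csf3r among them at 86 bases before the RefSeq start, against 23.3% of promoters. The motifs do not overlap each other in these stretches, and a match describes letters, not a bound site.

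The libraries held 42157790 to 57814587 gene counts, so a level of 1 CPM, the usual scale of counts relative to the library total, stands for 42.2 to 57.8 counts. The labelled tissue was checked with 8 genes of kidney epithelium such as Umod and Lrp2, which summed to 13326 to 16545 CPM per library. Against these, the 9 neutrophil genes together summed to 3.20 to 8.06 CPM in Dp16 2xIFNRs (median 7.02), to 4.26 to 7.06 CPM in Dp16 (median 6.21) and to 2.81 to 7.25 CPM in wild-type (median 3.56). The summed level overlapped between all 3 groups.

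Other neutrophil transcripts outside these 9 genes ranged from absent to as few as those of Retnlg. Ly6g, the surface marker used to identify mouse neutrophils, had 0 counts in Dp16 2xIFNRs, 4 in Dp16 and 1 in wild-type, and was at 0 in 16 of 18 libraries. Mpo, the myeloperoxidase of primary granules, had 13 counts in 1 Dp16 library and 0 in the other 17. Elane, neutrophil elastase, had 3, 2 and 11 counts over the Dp16 2xIFNRs, Dp16 and wild-type libraries. A count of 0 allows up to 3 counts, which is 0.0519 to 0.0712 CPM depending on the library and covers counting error only. Prtn3, the proteinase 3 of primary granules, had 40 counts in Dp16 2xIFNRs, 47 in Dp16 and 44 in wild-type, about as many as the 53, 40 and 47 counts of Retnlg in the same order. Cd177, a surface glycoprotein of neutrophils, had 38 counts in Dp16 2xIFNRs, 28 in Dp16 and 18 in wild-type. In RNA from a whole organ fewer cells and less RNA per cell cannot be told apart.

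Per kilobase of transcript, S100a8 had the highest mean level over the 18 libraries at 1.15 RPKM (CPM divided by the gene's length in kilobases), followed by S100a9 at 0.927 RPKM and Mmp9 at 0.653 RPKM. Csf3r averaged 0.359 RPKM, Ltf 0.291 RPKM and Retnlg 0.259 RPKM. Ngp averaged 0.0872 RPKM, Camp 0.0187 RPKM and Mmp8 0.0185 RPKM. The ranges of every pair of neighbours in this order overlapped, from 0 to 2.81 RPKM for S100a8 and from 0.136 to 2.39 RPKM for S100a9, so the order of neighbours is not fixed beyond their spread.

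**Figure D1:**
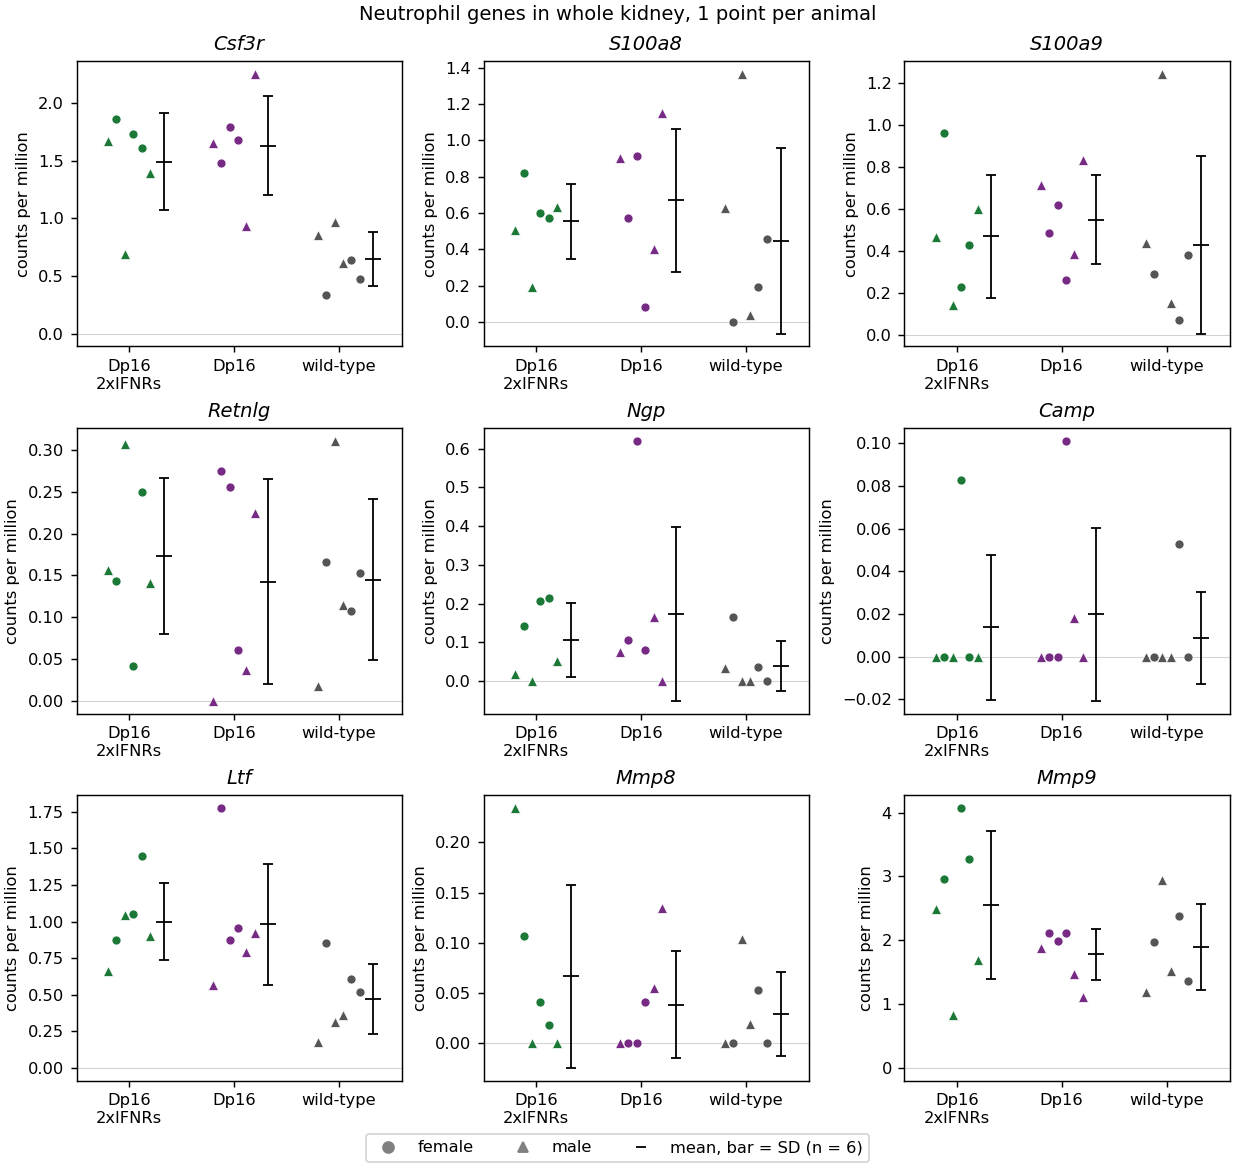
CPM (linear axes, a scale for each gene) of the 9 genes in each animal, with circles for females and triangles for males. Black marks give the mean and SD of the 6 animals to the right of each group. Csf3r and Ltf lie higher in Dp16 2xIFNRs and Dp16 than in wild-type, while S100a8 and S100a9 spread as widely within wild-type as between groups.

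Csf3r, the receptor for granulocyte colony-stimulating factor, was higher in both groups with the duplication. Its lowest, median and highest levels were 0.688, 1.64 and 1.86 CPM in Dp16 2xIFNRs, 0.935, 1.67 and 2.25 CPM in Dp16, and 0.332, 0.626 and 0.969 CPM in wild-type. In each duplicated group 5 of 6 libraries lay above every wild-type library, and the remaining library was a male. The mean was 1.49 ± 0.424 CPM in Dp16 2xIFNRs, 1.63 ± 0.430 CPM in Dp16 and 0.648 ± 0.236 CPM in wild-type (SD, n = 6 each). Csf3r rose in Dp16 2xIFNRs by 1.17 ± 0.27 against wild-type (log2 fold ± approximate SE, 95% interval 0.59 to 1.74, edgeR adjusted p = 0.0169). It rose in Dp16 by 1.29 ± 0.27 against wild-type (95% interval 0.72 to 1.86, edgeR adjusted p = 0.00941). Both comparisons use the same 6 wild-type libraries. These calls held under all 29 alternatives tried, with adjusted p up to 0.0462 and 0.0302.

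In females the separation of Csf3r was complete. The 3 female Dp16 2xIFNRs libraries had 1.61 to 1.86 CPM and the 3 female Dp16 libraries 1.48 to 1.79 CPM, against 0.332 to 0.639 CPM in female wild-type libraries. In males the groups overlapped, with 0.688 to 1.67 CPM in Dp16 2xIFNRs, 0.935 to 2.25 CPM in Dp16 and 0.612 to 0.969 CPM in wild-type. Among all tested genes, 10.3% had 3 Dp16 2xIFNRs females above the 3 wild-type females, and 9.85% had this for Dp16. The difference between sexes in the fold of Dp16 2xIFNRs over wild-type was -1.23 ± 0.49 on the log2 scale, males minus females, and did not pass (edgeR adjusted p = 0.9999). For Dp16 over wild-type it was -0.81 ± 0.49 (edgeR adjusted p = 0.650).

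Of the 6 genes that passed the filter on low counts, Csf3r and Ltf passed the test in Dp16 2xIFNRs against wild-type, both higher, where 4.79% of 17575 tested genes were called and 3.17% were called higher. In Dp16 against wild-type Csf3r and Ltf passed again, both higher, where 4.23% of tested genes were called and 3.17% were called higher. Ngp, Camp and Mmp8 did not reach the filter and were not tested in these fits. The median log2 fold of the 6 tested genes was 0.36 in Dp16 2xIFNRs and 0.48 in Dp16, both against wild-type, while the median over all tested genes was 0.01 and -0.01. These medians describe the genes high enough to test, and not all 9.

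**Figure D2:**
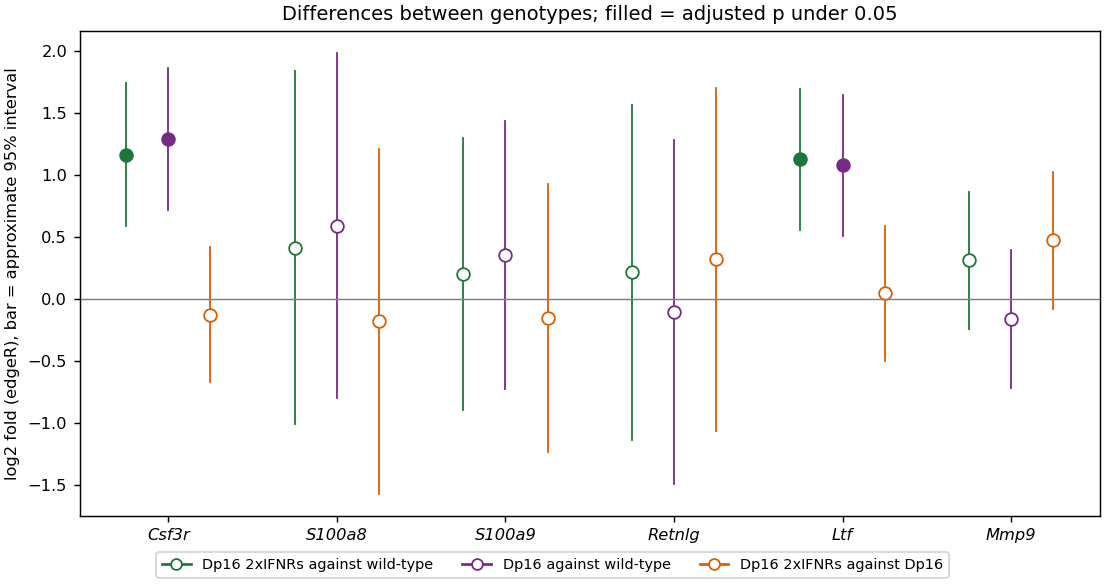
Log2 fold (vertical axis) of the 6 tested genes for Dp16 2xIFNRs against wild-type, Dp16 against wild-type and Dp16 2xIFNRs against Dp16, with approximate 95% intervals. Filled points, those of Csf3r and Ltf against wild-type, have an adjusted p under 0.05. The intervals of S100a8, S100a9 and Retnlg cross 0 and are wider than those of Csf3r, Ltf and Mmp9.

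S100a8 and S100a9 encode the subunits of calprotectin, an alarmin that binds calcium and zinc and makes up much of the protein of neutrophil cytosol. S100a8 had a lowest, median and highest level of 0.190, 0.586 and 0.823 CPM in Dp16 2xIFNRs, 0.081, 0.736 and 1.15 CPM in Dp16, and 0, 0.327 and 1.366 CPM in wild-type. Both extremes of S100a8 were thus wild-type libraries, a male with 79 counts and a female with 0. The log2 fold was 0.41 ± 0.68 for Dp16 2xIFNRs against wild-type (95% interval -1.01 to 1.84, edgeR adjusted p = 0.803). It was 0.59 ± 0.67 for Dp16 against wild-type (95% interval -0.80 to 1.98, edgeR adjusted p = 0.729). The difference was not detectable at this spread, and the intervals contain folds as large as those of Csf3r. Within females, S100a8 had 0.573, 0.599 and 0.823 CPM in Dp16 2xIFNRs, against 0, 0.195 and 0.458 CPM in wild-type, without overlap, as in 10.3% of tested genes.

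S100a9 had a lowest, median and highest level of 0.142, 0.448 and 0.966 CPM in Dp16 2xIFNRs, 0.264, 0.552 and 0.834 CPM in Dp16, and 0.071, 0.336 and 1.245 CPM in wild-type. The wild-type male that was highest for S100a8 was also highest for S100a9, and it stood apart from the other 5 wild-type libraries. The groups overlapped throughout. The log2 fold was 0.20 ± 0.52 for Dp16 2xIFNRs against wild-type (95% interval -0.89 to 1.30, edgeR adjusted p = 0.884). For Dp16 against wild-type it was 0.36 ± 0.52 (95% interval -0.72 to 1.44, edgeR adjusted p = 0.800). Single libraries set these values. Without that wild-type male, replicate 3, the fold of S100a9 was 0.78 in Dp16 2xIFNRs and 0.99 in Dp16 (edgeR adjusted p = 0.452 and 0.300), and that of S100a8 was 1.01 and 1.26 (edgeR adjusted p = 0.485 and 0.345). Without Dp16 2xIFNRs replicate 2 the fold of S100a9 in that group was -0.22 (edgeR adjusted p = 0.887), and none of these values passed. Over all alternatives the adjusted p ran from 0.452 to 0.991 for S100a9 and from 0.469 to 0.963 for S100a8 in Dp16 2xIFNRs, and from 0.300 to 0.943 and from 0.345 to 0.908 in Dp16.

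S100a8 and S100a9 varied together from animal to animal, but the relation did not pass adjustment. With each library set against the mean of its genotype and sex, Pearson's r of their log2 CPM was 0.628 (exact permutation within genotype and sex p = 0.0443) and Spearman's rho was 0.649 (exact permutation p = 0.0248) over 18 libraries. Adjusted over the 39 relations computed, some of them with summed markers of other cells, these became 0.448 and 0.466. Pearson's r was 0.706 without the 2 libraries farthest from the median of S100a8. Within genotypes r was 0.856 in Dp16 2xIFNRs, 0.952 in Dp16 and 0.559 in wild-type. Csf3r followed S100a8 to a like degree, with r = 0.625 (exact permutation p = 0.00609, adjusted p = 0.237) and rho = 0.662 (exact permutation p = 0.00898, adjusted p = 0.350). That r was 0.637 without the 2 farthest libraries, and 0.908 in Dp16 2xIFNRs, 0.439 in Dp16 and 0.837 in wild-type. Retnlg and Ltf were related as closely, with r = 0.627 (exact permutation p = 0.0281, adjusted p = 0.448) and rho = 0.602 (exact permutation p = 0.0358, adjusted p = 0.466). Their r was 0.530 without the 2 farthest libraries, and 0.549 in Dp16 2xIFNRs, 0.636 in Dp16 and 0.667 in wild-type. Csf3r and Ltf, which rose together between genotypes, did not follow each other among animals of 1 genotype and sex, with r = -0.427 (exact permutation p = 0.103, adjusted p = 0.485) and rho = -0.498 (exact permutation p = 0.0707, adjusted p = 0.480). That r was -0.394 without the 2 farthest libraries, and no relation among the 39 passed adjustment.

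**Figure D3:**
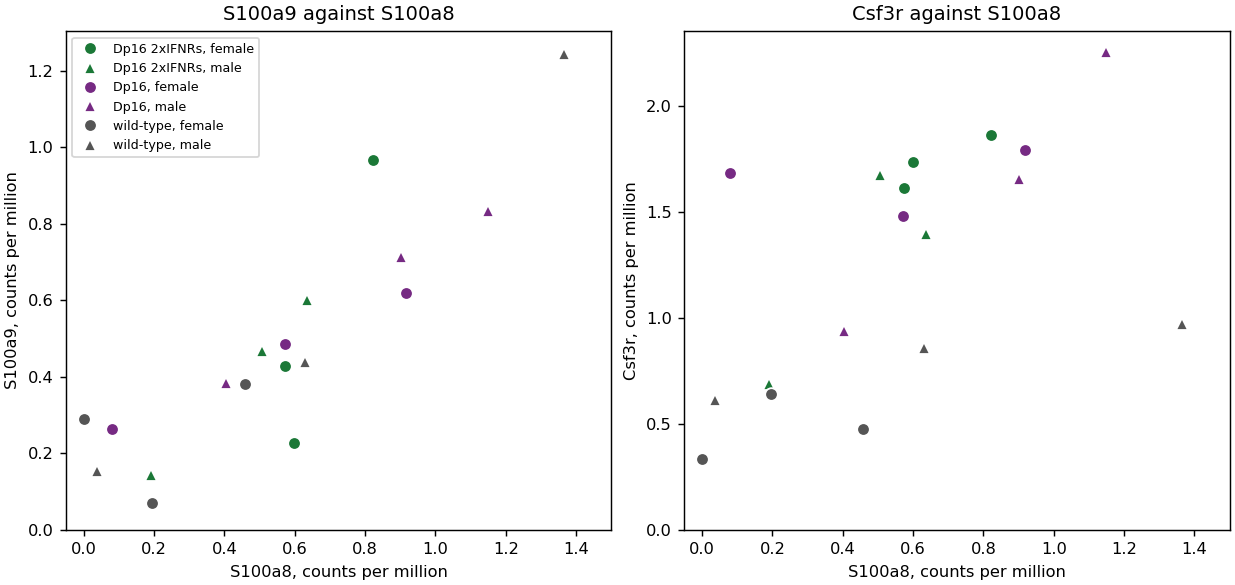
S100a9 (left) and Csf3r (right) against S100a8, all in CPM on linear axes, 1 point per animal, with color for genotype and shape for sex. S100a9 runs along with S100a8 up to the wild-type male at 1.366 and 1.245 CPM, while Csf3r lies lower in wild-type than in the duplicated groups at a like level of S100a8.

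Ltf encodes lactoferrin, the iron-binding protein of secondary granules. Its lowest, median and highest levels were 0.662, 0.972 and 1.45 CPM in Dp16 2xIFNRs, 0.564, 0.899 and 1.775 CPM in Dp16, and 0.175, 0.439 and 0.850 CPM in wild-type. Above every wild-type library lay 5 of 6 Dp16 2xIFNRs and 4 of 6 Dp16 libraries, and the highest wild-type library was a female. Within each sex neither duplicated group overlapped wild-type, where 10.3% of tested genes had 3 Dp16 2xIFNRs females above the wild-type ones and 13.9% had this in males. For Dp16 these shares were 9.85% in females and 12.6% in males. The mean of Ltf was 0.998 ± 0.263 CPM in Dp16 2xIFNRs, 0.980 ± 0.414 CPM in Dp16 and 0.470 ± 0.240 CPM in wild-type (SD, n = 6 each).

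Ltf rose in Dp16 2xIFNRs by 1.13 ± 0.27 against wild-type (log2 fold ± approximate SE, 95% interval 0.56 to 1.70, edgeR adjusted p = 0.0200). It rose in Dp16 by 1.08 ± 0.27 against wild-type (95% interval 0.51 to 1.65, edgeR adjusted p = 0.0277). The call in Dp16 2xIFNRs was lost without wild-type replicate 1 or Dp16 2xIFNRs replicate 5 (edgeR adjusted p = 0.0548 and 0.0505) and without the sex term (0.118), in a range of 0.00282 to 0.118 over the alternatives. The call in Dp16 was lost without wild-type replicate 1, 3, 4 or 6 or Dp16 replicate 2 or 6 (edgeR adjusted p from 0.0520 to 0.0717), with the 2 groups fitted alone (0.0599) and without the sex term (0.137), in a range of 0.00523 to 0.137.

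Retnlg, which encodes a small secreted protein of the resistin family made by mouse myeloid cells, overlapped between all genotypes. It ran from 0.041 to 0.308 CPM in Dp16 2xIFNRs, from 0 to 0.275 CPM in Dp16 and from 0.018 to 0.311 CPM in wild-type. Its log2 fold was 0.22 ± 0.65 for Dp16 2xIFNRs against wild-type (95% interval -1.14 to 1.57, edgeR adjusted p = 0.904). For Dp16 against wild-type it was -0.11 ± 0.66 (95% interval -1.49 to 1.28, edgeR adjusted p = 0.963). Its sign turned in both comparisons with single libraries left out, over a range of -0.08 to 0.71 in Dp16 2xIFNRs and of -0.39 to 0.34 in Dp16.

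Ngp and Camp, both of the cathelicidin-like proteins that neutrophil precursors pack into secondary granules, were barely measured. Ngp, the neutrophilic granule protein, summed to 34 counts in Dp16 2xIFNRs, 51 in Dp16 and 12 in wild-type. A single Dp16 female held 29 of the 51 Dp16 counts, at 0.619 CPM, while 3 of 6 wild-type libraries, 1 Dp16 library and 1 Dp16 2xIFNRs library were at 0. Camp, the precursor of the mouse cathelicidin peptide, summed to 4, 6 and 3 counts over the Dp16 2xIFNRs, Dp16 and wild-type libraries and was at 0 in 14 of 18.

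Mmp8 and Mmp9 are the collagenase and the gelatinase that neutrophils store in granules and release to cut matrix. Mmp8 summed to 21 counts in Dp16 2xIFNRs, 11 in Dp16 and 10 in wild-type, with 8 of 18 libraries at 0. Mmp9 had the most counts of the 9 genes, with a lowest, median and highest level of 0.830, 2.72 and 4.07 CPM in Dp16 2xIFNRs, 1.10, 1.93 and 2.11 CPM in Dp16, and 1.19, 1.74 and 2.94 CPM in wild-type. Both the highest and the lowest library for Mmp9 were Dp16 2xIFNRs animals. Its log2 fold was 0.31 ± 0.27 for Dp16 2xIFNRs against wild-type (95% interval -0.24 to 0.87, edgeR adjusted p = 0.579). For Dp16 against wild-type it was -0.16 ± 0.27 (95% interval -0.72 to 0.40, edgeR adjusted p = 0.832), an interval that leaves out folds as large as those fitted for Csf3r and Ltf. Without wild-type replicate 3 these values were 0.57 and 0.12 (edgeR adjusted p = 0.207 and 0.860, the lowest and highest over all alternatives being 0.207 and 0.787 in Dp16 2xIFNRs and 0.674 and 0.955 in Dp16).

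The comparison of Dp16 2xIFNRs with Dp16 asks what changes when the interferon receptor dose is normal and the rest of the segment stays duplicated. None of the 6 tested genes passed in edgeR or DESeq2 (0.0171% of tested genes were called by edgeR), and 0 of the 6 had an unadjusted edgeR p under 0.05, where 4.71% of tested genes did. Csf3r had a log2 fold of -0.13 ± 0.26 (95% interval -0.67 to 0.42, edgeR adjusted p = 0.939) and Ltf one of 0.05 ± 0.26 (95% interval -0.50 to 0.59, edgeR adjusted p = 0.978). These intervals bound the differences and do not show that the groups are alike. Mmp9 had the smallest unadjusted p, with a log2 fold of 0.47 ± 0.27 (95% interval -0.08 to 1.03, edgeR adjusted p = 0.850). In females Mmp9 had 2.95 to 4.07 CPM in Dp16 2xIFNRs, against 1.98 to 2.11 CPM in Dp16, without overlap, as in 4.98% of tested genes. The intervals of S100a8 (-1.57 to 1.21), S100a9 (-1.23 to 0.93) and Retnlg (-1.06 to 1.70) allow differences in either direction.

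Between the sexes Ltf alone passed among the 6 tested genes, where 38.8% of all tested genes differed between males and females and 19.7% were lower in males. Ltf averaged 0.869 CPM in Dp16 2xIFNRs males and 1.13 CPM in females, 0.759 CPM in Dp16 males and 1.20 CPM in females, and 0.283 CPM in wild-type males and 0.656 CPM in females (n = 3 each). Ltf fell in males by 0.60 ± 0.22 on the log2 scale (95% interval -1.06 to -0.14, edgeR adjusted p = 0.0351), and 12 of the 26 alternatives ended that call, the adjusted p lying between 0.00903 and 0.570 over all 26. Mmp9 was at -0.39 ± 0.22 (edgeR adjusted p = 0.170) and Csf3r at 0.16 ± 0.22 (edgeR adjusted p = 0.597), males against females. No fold between genotypes differed between the sexes after adjustment, in 6 genes and 3 comparisons, and Csf3r in Dp16 2xIFNRs against wild-type alone had an unadjusted p under 0.05. Over all tested genes 0.00569%, 0.0171% and 0% were called in Dp16 2xIFNRs against wild-type, Dp16 against wild-type and Dp16 2xIFNRs against Dp16, and 3.53%, 7.85% and 3.85% had an unadjusted p under 0.05.

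Between males and females the genes around the neutrophil genes differed in both directions. Of the 7 tested granule genes, Olfm4 (log2 fold 0.95) and the haptoglobin gene Hp (1.04) rose in males. Of 5 oxidase subunits Cyba rose (0.31), and of 4 receptors Cd36 rose (1.74) while Ager (-0.88) and Tlr4 (-0.35) fell. Of 6 metalloproteinase inhibitors Timp3 rose (0.25) while Reck (-0.57) and Timp2 (-0.46) fell, and of 9 signalling genes Jak1 rose (0.17) while Jak2 (-0.45) and Socs3 (-0.55) fell. Lcn2 (-0.30) did not pass, with an edgeR adjusted p of 0.0542.

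Of 10 other granule proteins 7 were tested, and 2 of them, Lyz2 and Lcn2, rose in both comparisons with wild-type. In each of these comparisons 3.17% of all tested genes were called higher. None of the 7 fell, and the list's median log2 fold was 0.63 in Dp16 2xIFNRs and 0.79 in Dp16. The 5 that did not pass did not all lie on the same side. Hp, the haemoglobin-binding haptoglobin, had a log2 fold of -0.56 ± 0.18 (SE) in Dp16 2xIFNRs (edgeR adjusted p = 0.0803) and -0.10 ± 0.18 in Dp16 (adjusted p = 0.847). Olfm4, the granule protein olfactomedin 4, had log2 folds of -0.06 in Dp16 2xIFNRs and 0.12 in Dp16 (adjusted p = 0.857 and 0.712). Lcn2, a siderophore-binding protein of secondary granules that injured tubules also make, had 4.27 to 6.12 CPM in Dp16 2xIFNRs and 3.65 to 8.51 CPM in Dp16, against 1.96 to 3.44 CPM in wild-type. No library of either duplicated group overlapped wild-type for Lcn2, as in 1.14% of tested genes for Dp16 2xIFNRs and 1.02% for Dp16. Lyz2, a lysozyme that macrophages also make in quantity, ran from 44.4 to 75.3 CPM in Dp16 2xIFNRs and from 50.7 to 70.7 CPM in Dp16, against 21.6 to 38.1 CPM in wild-type. None of the 8 primary granule and promyelocyte genes, such as Mpo, Elane, Prtn3 and Ctsg, had enough counts to be tested.

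Of 14 surface receptors and adhesion molecules of neutrophils 6 were tested, and Itgb2, Itgam and Selplg rose in both comparisons. The list median was 0.58 in Dp16 2xIFNRs and 0.70 in Dp16, and 3.17% of all tested genes were called higher in each comparison. Itgb2, the shared beta chain of the leukocyte integrins, rose by 0.75 ± 0.13 in Dp16 2xIFNRs (edgeR adjusted p = 0.00204) and by 0.75 ± 0.13 in Dp16 (edgeR adjusted p = 0.00220). Itgam, the alpha chain of the integrin Mac-1 shared by neutrophils, monocytes and macrophages, rose by 0.86 ± 0.21 in Dp16 2xIFNRs (edgeR adjusted p = 0.0217) and by 0.94 ± 0.21 in Dp16 (edgeR adjusted p = 0.0138). Cxcr2, the chemokine receptor that draws neutrophils out of blood, summed to 35 counts in Dp16 2xIFNRs, 32 in Dp16 and 34 in wild-type and was not tested. The 5 NADPH oxidase subunits, all tested, had medians of 0.47 in Dp16 2xIFNRs and 0.48 in Dp16. Cybb, the catalytic subunit of the oxidative burst, rose by 0.61 ± 0.13 in Dp16 2xIFNRs (edgeR adjusted p = 0.00723) and by 0.51 ± 0.13 in Dp16 (edgeR adjusted p = 0.0244).

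Upstream of Csf3r, its ligand Csf3 had 2 counts in Dp16 2xIFNRs, 0 in Dp16 and 3 in wild-type. Of 9 ligands and attractants only Cxcl1, Ppbp and Il1b were tested and none passed, with medians of 0.67 in Dp16 2xIFNRs and 0.28 in Dp16. Downstream of Csf3r, the 9 signalling genes had medians of 0.07 in Dp16 2xIFNRs and 0.13 in Dp16. Among them Spi1, which encodes PU.1, rose in Dp16 2xIFNRs by 0.50 ± 0.14 (edgeR adjusted p = 0.0424).

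Among 4 receptors for the secreted products, Tlr4, which binds the S100a8 and S100a9 complex, rose by 0.48 ± 0.14 in Dp16 2xIFNRs (edgeR adjusted p = 0.0454). In Dp16 Tlr4 was at 0.38 ± 0.14 (edgeR adjusted p = 0.121), and the list medians were 0.40 in Dp16 2xIFNRs and 0.27 in Dp16. Of 6 inhibitors of matrix metalloproteinases none passed in either comparison, with medians of 0.07 and -0.01. Timp1, the inhibitor that binds Mmp9, had a log2 fold of 0.76 ± 0.46 in Dp16 2xIFNRs (edgeR adjusted p = 0.412) and of 1.23 ± 0.46 in Dp16 (edgeR adjusted p = 0.145). No gene of any of these lists passed in Dp16 2xIFNRs against Dp16.

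**Figure D4:**
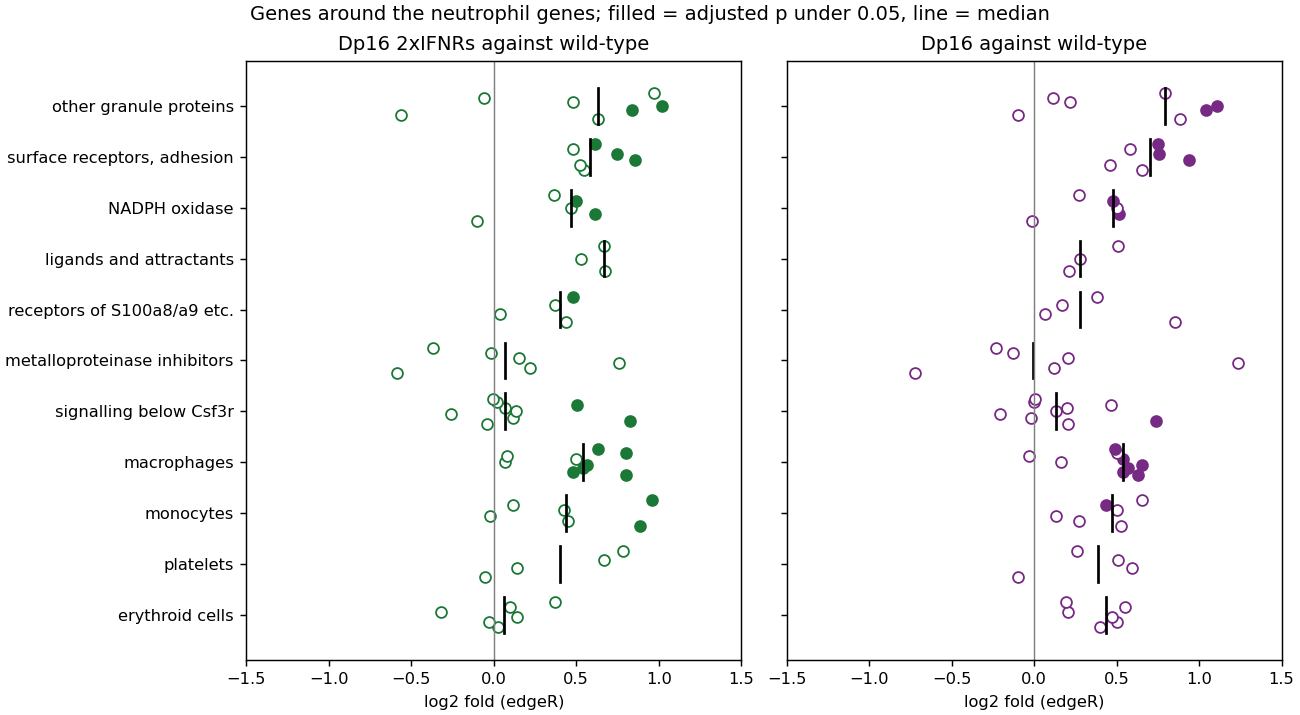
Log2 fold against wild-type (horizontal axis) of each tested gene in 11 lists of genes around the neutrophil genes, for Dp16 2xIFNRs (left) and Dp16 (right). Filled points have an adjusted p under 0.05 and black lines are list medians. Called genes lie to the right of 0, and 6 of the 9 macrophage genes are called in each panel.

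Some markers of other immune cells rose beside Csf3r and Ltf. Over all tested genes 3.17% were called higher in each comparison with wild-type. Of 9 macrophage markers 6 rose in Dp16 2xIFNRs and 6 in Dp16 against wild-type, with medians of 0.54 and 0.54. Their summed level ran from 186 to 254 CPM in Dp16 2xIFNRs and from 187 to 247 CPM in Dp16, against 129 to 200.0 CPM in wild-type. None of the 9 was at 0, and Adgre1, which encodes the macrophage antigen F4/80, rose by 0.80 ± 0.13 in Dp16 2xIFNRs (edgeR adjusted p = 0.00132). In Dp16 the smallest p was that of the complement gene C1qb, at 0.57 ± 0.10 (edgeR adjusted p = 0.00363). Of 6 monocyte markers Ccr2 and Vcan passed in Dp16 2xIFNRs and Plac8 in Dp16, all higher. Ccr2 (log2 fold 0.52) and Vcan (0.65) were also positive in Dp16, and Plac8 (0.12) in Dp16 2xIFNRs, without passing. None of these passed in Dp16 2xIFNRs against Dp16 (edgeR adjusted p = 0.850, 0.855 and 0.850). The summed level of the 6 markers ran from 50.5 to 103 CPM in Dp16 2xIFNRs, 57.3 to 137 CPM in Dp16 and 41.2 to 119 CPM in wild-type. Among animals of 1 genotype and sex, Csf3r had a Pearson's r of 0.366 with the macrophage sum and 0.383 with the monocyte sum. Ltf had -0.17 and -0.424 (exact permutation adjusted p = 0.501, 0.501, 0.795 and 0.501 in this order). The part of macrophages and monocytes in the rise of Csf3r and Ltf between genotypes was not tested.

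Of 6 T cell markers 2 rose in Dp16 2xIFNRs and 4 in Dp16, among them Cd4 and Trac in both. Over all tested genes 3.17% were called higher in each comparison. The T cell sum ran from 7.34 to 11.5 CPM in Dp16 2xIFNRs, 8.03 to 16.4 CPM in Dp16 and 3.52 to 8.10 CPM in wild-type. Of 6 B cell and plasma cell markers 0 rose in Dp16 2xIFNRs and 1, Jchain, in Dp16. Residual blood was tracked with 6 measured erythroid genes, none of which passed in either comparison, and their summed level ran from 218 to 677 CPM in Dp16 2xIFNRs, 111 to 1005 CPM in Dp16 and 170 to 608 CPM in wild-type. Slc4a1, which intercalated cells of the kidney also express, gave 48.5 to 116 CPM of these sums, and without it, a choice made after seeing the data, they ran from 101 to 591 CPM in Dp16 2xIFNRs, 44.5 to 928 CPM in Dp16 and 88.5 to 560.0 CPM in wild-type. Of 6 platelet genes 4 were tested and none passed, with sums of 5.48 to 7.64 CPM in Dp16 2xIFNRs, 5.74 to 7.60 CPM in Dp16 and 4.62 to 6.76 CPM in wild-type. Of 9 eosinophil, basophil and mast cell genes 5 were tested and none passed.

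The genes whose levels most closely followed the mean of the 6 tested neutrophil genes, over 18 libraries each set against its genotype and sex mean, were Emcn (Pearson's r = 0.865), Efs (0.847), Sprr1a (0.843), Zdhhc13 (0.840) and Cpne8 (0.839), out of 17569 genes ranked. These are the top of a long ranking over libraries that share depth and tissue, and they are given as a description. Emcn, an endothelial sialomucin, ran from 60.05 to 98.3 CPM over the 18 libraries, and its log2 fold was 0.04 in Dp16 2xIFNRs and 0.01 in Dp16 against wild-type. None of the 5 passed in any comparison between genotypes.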

How the data were processed

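Whole kidney polyA RNA of 18 animals was sequenced in paired ends on an Illumina instrument from strand-specific libraries, per the labels' protocols. The submitters' processing notes name the build GRCm38 and, in no stated role, HTSeq 0.6.1, HISAT2 2.1.0, FastQC 0.11.5, SAMtools 1.5 and bcl2fastq, and the strand setting of the counting is not given in the sources used here. The authors deposited whole-number counts per gene that were not normalized. Their deposited RPKM values match the counts divided by library total and a single gene length within 0.1% in 14767 of 14767 genes checked.

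CPM were computed here from the counts and library totals, 42157790 to 57814587. All 18 libraries entered 1 quasi-likelihood fit of edgeR 4.0.16 (R 4.3.3) with TMM normalization and with genotype and sex as terms. Benjamini-Hochberg adjustment ran over all 17575 genes kept by the filter on low counts. That filter had a minimum count of 10, not required in every group, and a minimum total of 15. The threshold was 0.05, tests were two-sided, SEs of log2 folds are approximate, and the biological coefficient of variation was 16.8%. Correlations used log2 CPM, with a prior count of 2 for single genes and none for summed markers, and all 46656 permutations within genotype and sex. Some of the steps were run on simulated data, and no result of those runs is reported here. Alternatives are listed with their effects in the closing section, among them DESeq2 1.42.0, limma 3.58.1 and a pseudocount of 0.1 on RPKM.

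The 9 genes and the lists around them were chosen with earlier results of these data known. Named genes are these 9, genes called with the smallest p in each list, a few picked by role, and the 5 with the closest pattern. Further list members, such as Itgam, Cxcr2, Vcan and Spi1, were named after their values were seen, and a few list members are not reported here. The labels give each library a sample number within its genotype, a sex and an age. If the libraries did not come from separate animals the p-values measure technical spread. The last number of the description is shared by some libraries of different genotypes, and its meaning is not stated. As a random block in limma-voom it had a consensus correlation of 0.0778. The sample numbers repeat across the genotypes and were not treated as a pairing in the main fit. No batch is labelled.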

Additional observations from a re-analysis of the deposited data

Results flagged for a closer look

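In groups of 6 animals, 7 levels stood apart from their own group by Dixon's test at the 95% level, among 27 gene and group pairs checked, where chance flags about 1 in 20 groups. That rate does not apply to Ngp and Camp, whose libraries are mostly at or near 0. In Camp a single library with counts stood apart by construction in Dp16 2xIFNRs and in wild-type. S100a9 stood at 1.245 CPM (72 counts) in wild-type replicate 3, a male, with the next wild-type library at 0.438 CPM. Ltf stood at 1.775 CPM (84 counts) in Dp16 replicate 2, a female, with the next Dp16 library at 0.953 CPM. Ngp stood at 0.619 CPM (29 counts) in Dp16 replicate 3 and at 0.166 CPM (8 counts) in wild-type replicate 2, both females. Camp stood at 0.083 CPM (4 counts) in Dp16 2xIFNRs replicate 4, at 0.101 CPM (5 counts) in Dp16 replicate 4 and at 0.053 CPM (3 counts) in wild-type replicate 5, all females, where nearly all other libraries were at 0. Without Dp16 replicate 2 the log2 fold of Ltf in Dp16 against wild-type was 0.91 (edgeR adjusted p = 0.0717, in a range of 0.00523 to 0.137 over the alternatives).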

How the results depend on the processing

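Csf3r kept its call against wild-type in Dp16 2xIFNRs and in Dp16 under all 29 alternatives, with log2 folds of 0.88 to 1.32 and of 0.99 to 1.44. Of the 6 tested genes, 2 were called in Dp16 2xIFNRs against wild-type, but 1 when genes under an average log2 CPM of 0 were dropped, which removes Ltf, and 1 without the sex term. With 1 library left out the count was 1 to 2. In Dp16 against wild-type it was 1 under that filter, without the sex term and with the 2 groups fitted alone, and 1 to 2 with 1 library left out. In both comparisons the gene lost was Ltf, and apart from the filter the cause was not tested. For males against females the count of 1 became 0 under that filter, with age as a covariate, with the sample number as a replicate block and with the last number of the description as a random block, 2 with limma-trend on RPKM, and 0 to 1 with 1 library left out. In limma-trend the second gene was Mmp9 (-0.50, adjusted p = 0.0465), which was also called without wild-type replicate 3 (-0.56, edgeR adjusted p = 0.0246), where Ltf was not. In Dp16 2xIFNRs against Dp16 it was 0 throughout.

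Over all genes, 841 were called in Dp16 2xIFNRs against wild-type, 234 without the sex term, 1287 with DESeq2 and 526 to 920 with 1 library left out (526 without wild-type replicate 1 and 552 without Dp16 2xIFNRs replicate 1). In Dp16 against wild-type 744 were called, 190 without the sex term, 1236 with DESeq2, 453 with the 2 groups alone and 429 to 815 with 1 library left out (478 when wild-type replicate 4 was left out, 462 when Dp16 replicate 1 was and 429 when Dp16 replicate 3 was). In Dp16 2xIFNRs against Dp16 the count of 3 ran from 2 to 4.

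Same-numbered libraries correlated at -0.493 to 0.481. Wild-type with Dp16 gave -0.493 for number 1 and 0.305 to 0.481 for the other numbers, and pairs with Dp16 2xIFNRs gave -0.163 to 0.359. No correlation between libraries of different number is given for comparison, so these values cannot decide whether the number is a pairing. With the sample number as a replicate block 2, 2 and 0 of the neutrophil genes were called in the 3 genotype comparisons, and 945, 910 and 3 of all genes. Depth limits Ngp, Camp and Mmp8, which have 97, 13 and 42 counts in all over 18 libraries.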

Other observations

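Fitted without the filter on low counts (30553 genes), Ngp had a log2 fold of 2.21 ± 0.87 in Dp16 against wild-type (edgeR adjusted p = 0.219) and of 1.25 ± 0.88 in Dp16 2xIFNRs against wild-type (edgeR adjusted p = 0.581). In that fit Ngp fell in males against females by 2.06 ± 0.70 on the log2 scale (edgeR adjusted p = 0.0291), while Ltf was at -0.59 ± 0.23 (edgeR adjusted p = 0.0686). The highest Ngp library of each genotype was a female, and the 3 highest levels of Camp were also in females.

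Each gene on its own had different closest companions, chosen here after their values were seen. Mmp9 was followed most closely by Alox5, the 5-lipoxygenase of leukotriene synthesis, with Pearson's r = 0.920 over 18 libraries set against their genotype and sex means and r = 0.786 without that centring. S100a9 was followed by Cck (r = 0.916, or 0.577 uncentred) and Csf3r by Tmtc2 (r = 0.932, or 0.074 uncentred), out of 17574 genes ranked. None of the 9 genes was among the first 5 companions of Csf3r, S100a8, S100a9, Ltf or Mmp9.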
